A study of Homo sapiens with 12 samples.

Results

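PC3 was compared with BPH-1 over the whole transcriptome, with the 4 RNA-seq libraries of each line chosen by their cell line label, which gave 8 of the 12 libraries in the series. PC3 is a human prostate cancer line taken from a bone metastasis that grows without androgen, and BPH-1 is a benign human prostate epithelial line immortalised with a viral large T antigen. Both lines carried the genotype label WT, carried no treatment label, and grew in Dulbecco's modified Eagle's medium with fetal bovine serum, penicillin and streptomycin. Each group is 1 cell line, so the difference between them is that of 2 lines and not of cancer and benign tissue in general. The labels do not say whether the 4 libraries of a line came from separate cultures, and p-values then measure the spread between these libraries, which may be technical. The study used this comparison to screen the CLC chloride channel genes, and the pathways and gene families outside that family are described here.

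The prostate gland is lined by a luminal layer, which secretes and responds to androgen, over a basal layer that carries the keratins KRT5 and KRT14 and the transcription factor p63 and is anchored to the basement membrane by laminins and integrins. Epithelial cells hold together through E-cadherin, desmosomes and tight junctions, and cells that go through an epithelial-mesenchymal transition give these up for N-cadherin and vimentin. PC3 is known as an androgen-independent line.

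Expression was deposited for 58302 genes in a table whose header names no unit, and the values behave as FPKM, fragments per kilobase of exon scaled to the mapped reads of the library. The exon length behind them counts each distinct annotated exon in full, so overlapping exons count more than once. Genes with many overlapping exons thus have lower values than standard FPKM, and levels of different genes are not directly comparable. The reads behind the values were recovered from the size of 1 read in each library and summed to 16006283 to 16357242 in the BPH-1 libraries and 13522629 to 14539386 in the PC3 libraries. Summed FPKM was 243707 to 249733 in BPH-1 and 293492 to 306698 in PC3. Log2(FPKM + 1) correlated at 0.969 to 0.984 between BPH-1 libraries, at 0.958 to 0.988 between PC3 libraries and at 0.744 to 0.822 between lines. PC3 replicate 4 stood apart from the other PC3 libraries on the second principal component, which held 5.21% of the variance against 85.3% for the first, and counts of called genes without it stand below. Of the epithelial markers, EPCAM was at 60.8 ± 2.28 against 9.10 ± 1.81 FPKM (mean ± SD of 4 libraries, BPH-1 first here and below), KRT8 at 31.1 ± 9.58 against 23.02 ± 6.30 FPKM and KRT18 at 35.8 ± 6.15 against 29.5 ± 3.55 FPKM. CDH1, the fourth marker, was at 28.4 ± 12.2 against 0.786 ± 0.440 FPKM and is described with the junction genes. Both lines thus carried epithelial keratins as labelled, whereas the secretory prostate product KLK3 was listed at 0 in all 8 libraries.

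Of 16346 genes with enough reads to test (at least 10 at the median depth in at least 4 of the 8 libraries), limma called 11058 at a Benjamini-Hochberg adjusted p under 0.05, or 67.6%. In PC3, 4443 genes (27.2%) were higher and 6615 (40.5%) were lower. A log2 fold change beyond 1 in either direction, on the log2(FPKM + 1) scale that understates the change of low genes, was reached by 4424 called genes (27.1%), 1543 higher (9.44%) and 2881 lower (17.6%). The PC3 and BPH-1 libraries did not overlap for 64.5% of tested genes. Without PC3 replicate 4, 11037 genes were called, 4449 higher and 6588 lower. The median log2 fold change over all tested genes was -0.13 and moved to -0.28 with the libraries scaled to the same summed FPKM and to -0.04 with median-of-ratios scaling. Any gene group is therefore read against that median and against these shares, since most genes differed between the lines. At most 3 reads in every PC3 library were seen for 738 tested genes and at most 3 in every BPH-1 library for 202.

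**Figure D1:**
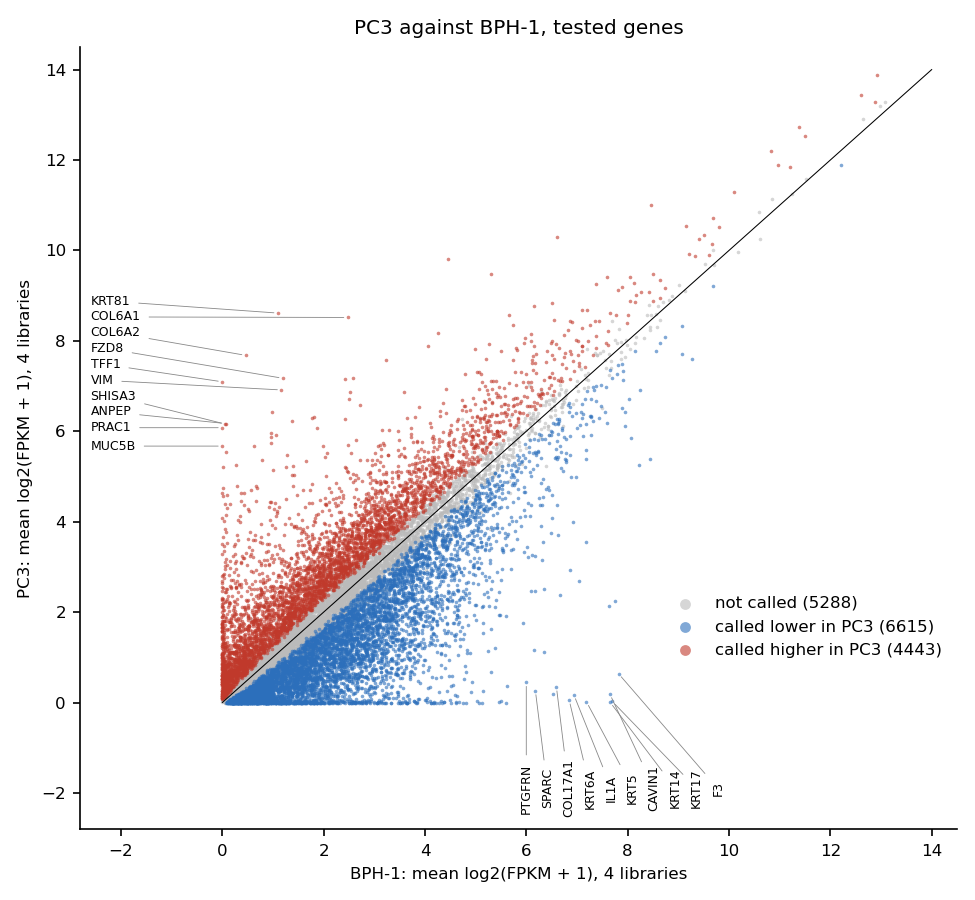
Mean log2(FPKM + 1) of 4 PC3 libraries (vertical axis) against that of 4 BPH-1 libraries (horizontal axis) for the 16346 tested genes, each a point, with genes called higher in PC3 in red, called lower in blue and not called in grey. The 20 named genes with the largest differences lie along the axes, and more points are blue (6615) than red (4443).

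The direction of the difference followed the base composition of the transcripts, and this bears on every group below. In the lowest of 10 equal bins of GC content over tested genes (at most 38.7% GC), 80.2% were called lower in PC3 and 5.75% higher, with a median log2 fold change of -0.94. In the highest bin (at least 61.3% GC), 18.1% were lower and 47.4% higher, with a median of 0.26. The gradient was present in each PC3 library but differed in size. In the lowest bin the median difference from the BPH-1 mean was -0.74 in PC3 replicate 1, -0.78 in replicate 2, -1.005 in replicate 3 and -1.20 in replicate 4. The BPH-1 libraries lay between -0.05 and 0.05 in the same bin. Whether this gradient belongs to the libraries or to the cells was not tested and cannot be told apart in 1 set of libraries per line. A fit on values with each library's trend against GC content taken out called 10458 genes (64.0%), 5061 higher (31.0%) and 5397 lower (33.0%), and its values are given beside many of the groups below and are called GC-corrected.

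**Figure D2:**
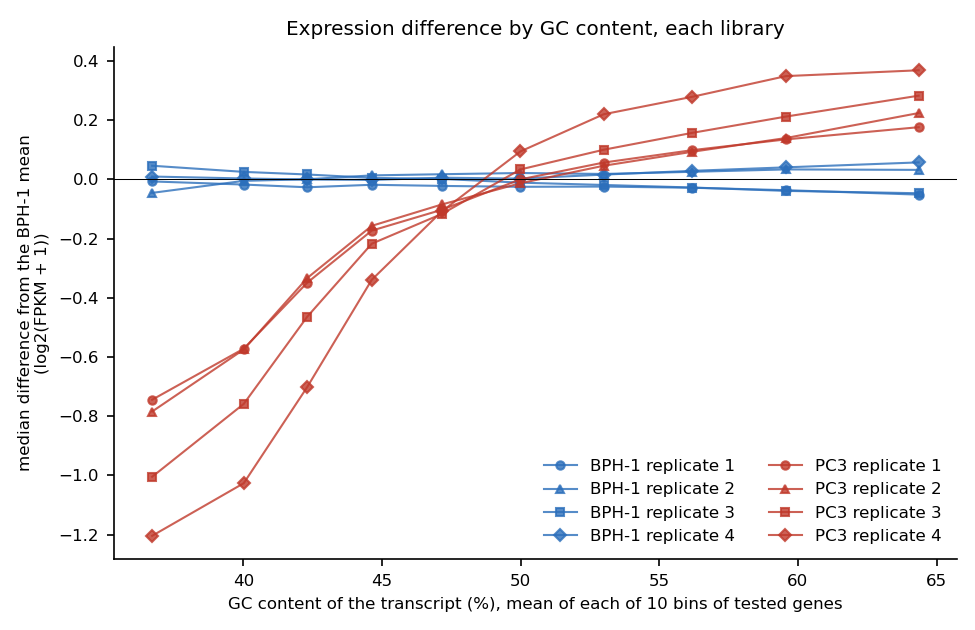
Median difference from the BPH-1 mean, in log2(FPKM + 1), for tested genes in 10 equal bins of GC content (horizontal axis, mean GC percent of each bin), with a line for each of the 4 BPH-1 and 4 PC3 libraries. The PC3 lines run from between -0.74 and -1.20 in the lowest bin to between 0.18 and 0.37 in the highest, while the BPH-1 lines stay within 0.06 of 0.

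The keratins KRT17, KRT14, KRT5 and KRT6A were among the 10 largest falls of well-covered coding genes. KRT17, a keratin of basal and stressed epithelium, was at 212, 273, 135 and 232 FPKM in the BPH-1 libraries and 0, 0, 0.0390 and 0.0278 FPKM in the PC3 libraries. KRT14, the partner of KRT5 in basal cells, was at 238, 232, 162 and 179 FPKM in the BPH-1 libraries and 0, 0, 0 and 0.0265 FPKM in the PC3 libraries. F3, tissue factor, which starts blood clotting, was at 302, 252, 209 and 160.2 FPKM in the BPH-1 libraries and 0.400, 0.529, 0.687 and 0.624 FPKM in the PC3 libraries. In each of these genes every BPH-1 library stood far above every PC3 library, with log2 fold changes of -7.67 ± 0.19 (± SE), -7.64 ± 0.14 and -7.18 ± 0.18 and adjusted p of 8.73e-09, 1.50e-09 and 8.76e-09. A lack of overlap and an adjusted p under 0.05 were part of the rule that named these genes. CAVIN1, which coats caveolae (-7.46), KRT5 (-7.17), KRT6A, a keratin of activated keratinocytes (-6.79), IL1A, an alarm cytokine and a product of injured epithelium (-6.77), COL17A1, the transmembrane collagen of hemidesmosomes (-6.24), SPARC, a collagen-binding matrix protein (-5.91), and PTGFRN, a tetraspanin partner (-5.55), completed the 10 largest falls.

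KRT81, a keratin of hair, and the collagen VI chains COL6A1 and COL6A2 were among the 10 largest rises. KRT81 was at 1.21, 3.14, 0.613 and 0.432 FPKM in the BPH-1 libraries and 382, 348, 316 and 556 FPKM in the PC3 libraries. COL6A2, a chain of the collagen VI microfibril, was at 0.248, 0.784, 0.270 and 0.285 FPKM in the BPH-1 libraries and 206, 204, 194 and 212 FPKM in the PC3 libraries, and its partner chain COL6A1 rose as well (4.76 ± 1.71 against 366 ± 26.1 FPKM). TFF1, a trefoil peptide that protects mucosal surfaces, was at 0 in all BPH-1 libraries and at 100.3, 113, 164 and 183 FPKM in PC3, which is at least 397-fold above the 3-read floor per library. PRAC1, a small protein of prostate and distal colon, and the gel-forming mucin MUC5B were also at 0 in every BPH-1 library and reached 68.1 ± 16.7 and 53.8 ± 20.7 FPKM in PC3, at least 135-fold and 5354-fold above that floor. SHISA3, an antagonist of WNT and FGF receptors (6.11), ANPEP, aminopeptidase N (6.10), FZD8, a WNT receptor (5.97), and VIM, vimentin (5.75), were the other genes with the largest log2 fold changes upwards. The libraries of the 2 lines overlapped for none of these 20 genes, by the rule that named them.

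**Figure D3:**
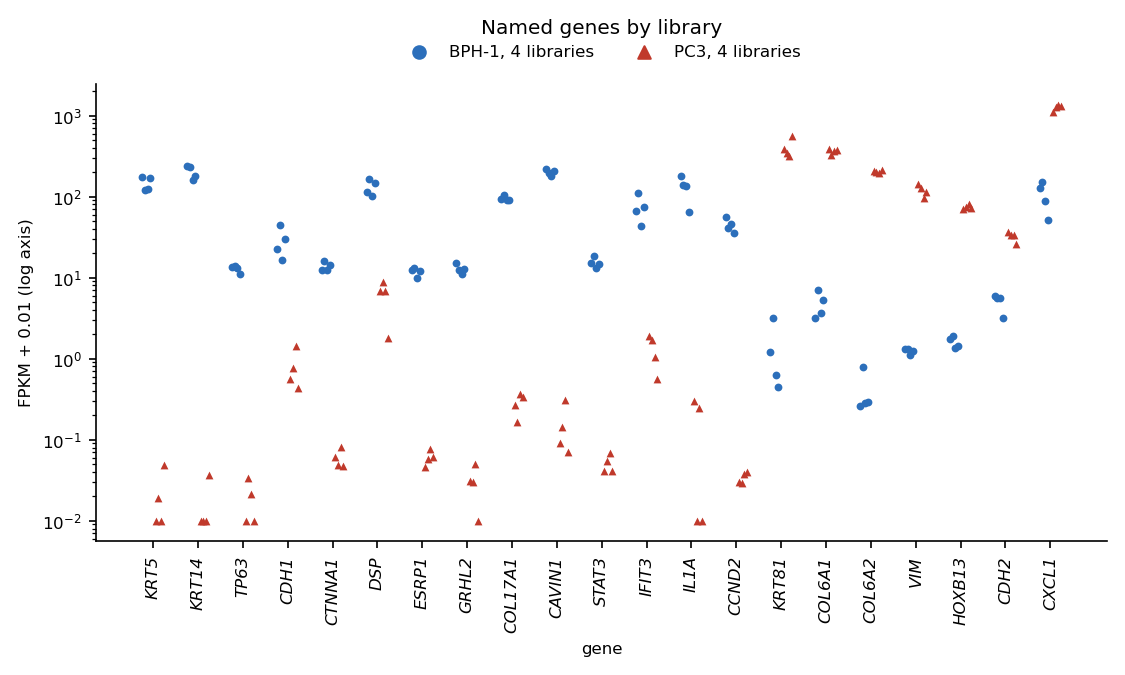
FPKM plus 0.01 on a log axis for 21 named genes in each of the 4 BPH-1 (circles) and 4 PC3 (triangles) libraries. The genes from KRT5 to CCND2 lie lower in every PC3 library than in any BPH-1 library, and KRT81, COL6A1, COL6A2, VIM, HOXB13, CDH2 and CXCL1 lie higher in every PC3 library.

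Basal identity genes were low throughout PC3. All 12 members of the basal keratin and TP63 list were tested, 11 were lower in PC3 and none was higher, with a median log2 fold change of -3.71 (-3.48 GC-corrected). A gene could pass the filter through BPH-1 alone, and such a gene could hardly come out higher in PC3. With 10 reads asked of all 8 libraries, 3 members were tested, 2 of them lower and 0 higher. KRT5, the defining basal keratin, was at 175, 120.2, 122.6 and 169.5 FPKM in the BPH-1 libraries and 0, 0.00899, 0 and 0.0381 FPKM in the PC3 libraries. TP63, the transcription factor of basal cells, was at 13.5, 13.8, 13.3 and 11.2 FPKM in the BPH-1 libraries and 0, 0.0234, 0.0116 and 0 FPKM in the PC3 libraries, a log2 fold change of -3.79 ± 0.11 with adjusted p = 1.41e-08. No PC3 library came near a BPH-1 library in either gene, though for KRT5 a lack of overlap was part of the rule that named it among the largest falls. Of the simple and luminal keratins, 4 of 8 tested were higher and 2 lower, a majority that was lost (4 and 4) after the GC correction and with the same summed FPKM. KRT19 rose (32.0 ± 9.72 against 232 ± 58.9 FPKM, log2 fold change 2.84 ± 0.25, adjusted p = 9.36e-06), as did KRT7 (1.09 ± 0.247 against 60.4 ± 9.40 FPKM), while KRT80 fell (8.50 ± 2.81 against 3.07 ± 0.947 FPKM). KRT8 and KRT18, the main pair of simple epithelium, were not called, at log2 fold changes of -0.40 and -0.26 with adjusted p of 0.191 and 0.115, but both were called lower after the GC correction (-0.69 and -0.53), KRT8 also without BPH-1 replicate 3 (adjusted p = 0.0336) and KRT18 without PC3 replicate 4 (adjusted p = 0.0417).

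Prostate genes outside the basal layer differed in both directions. HOXB13, which marks prostate and distal gut, was at 1.76, 1.89, 1.34 and 1.44 FPKM in the BPH-1 libraries and 69.4, 75.3, 81.1 and 71.3 FPKM in the PC3 libraries, a log2 fold change of 4.86 ± 0.11 with adjusted p = 4.65e-09. NDRG1, a stress-responsive differentiation gene, rose (10.5 ± 3.49 against 47.4 ± 23.8 FPKM), and PMEPA1, a brake on TGF-beta signalling, fell (5.49 ± 5.03 against 0.861 ± 0.254 FPKM). KLK3 and the neuroendocrine marker CHGA were too low to test, with CHGA at 0 ± 0 against 0.0185 ± 0.0189 FPKM. Of the 4 neuroendocrine genes tested, SYP, synaptophysin (0.809 ± 0.166 against 0.109 ± 0.0388 FPKM), and CHGB, chromogranin B (0.491 ± 0.168 against 0 ± 0 FPKM), were among the 3 lower ones and ENO2, neuronal enolase (2.47 ± 0.694 against 6.63 ± 1.39 FPKM), was the 1 that rose.

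HOX genes, which record position along the body axis, differed in both directions. Of 30 tested, 11 were higher and 12 lower, with a median of 0.03 that went to -0.15 with the libraries scaled to the same summed FPKM and to -0.09 after the GC correction. Beside HOXB13, HOXB5 (0.134 ± 0.0939 against 2.23 ± 0.332 FPKM) and HOXA13 (4.60 ± 0.739 against 10.4 ± 2.91 FPKM) rose. HOXB7 fell (11.7 ± 0.346 against 0.119 ± 0.0901 FPKM, log2 fold change -3.51 ± 0.11, adjusted p = 2.11e-08). HOXD10 was at 10.3, 11.9, 7.98 and 11.5 FPKM in the BPH-1 libraries and at 0 in all PC3 libraries, at least 181-fold lower against the 3-read floor, and its neighbours HOXD9 and HOXD11 were at 0 reads in every PC3 library. Of 58 MAGE, GAGE, PAGE, XAGE and SSX genes, which are normally limited to testis, 57 were too low to test in both lines, and MAGEA3 was higher in PC3 at a low level (0.0272 ± 0.0264 against 0.497 ± 0.0493 FPKM).

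Summed levels of markers of other cell types were low in both lines, though LYZ and PTPRC were above 0 in every BPH-1 library. Summed over the 7 fibroblast markers, FPKM was 1.99 to 3.76 in BPH-1 and 4.06 to 7.19 in PC3, with DCN and LUM too low to test. Over the 4 smooth muscle markers the sum was 0.240 to 0.733 and 0.247 to 0.341, and over the 5 endothelial markers 0.2498 to 0.674 and 1.52 to 3.59. Leukocyte markers summed to 9.61 to 12.6 FPKM in BPH-1 and 0.0796 to 0.230 in PC3, mostly from LYZ, lysozyme (8.88 ± 1.03 against 0.0711 ± 0.0655 FPKM). PTPRC, the pan-leukocyte phosphatase CD45, was at 1.35 ± 0.163 against 0 ± 0 FPKM, and the T and B cell markers CD3E and MS4A1 were too low to test. The part of these markers in the other differences was not tested.

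Several genes of epithelial adhesion fell in PC3. Among 10 tested cadherins and catenins, 3 were higher and 5 lower. CDH1, E-cadherin of the adherens junction, was at 22.6, 44.6, 16.3 and 30.2 FPKM in the BPH-1 libraries and 0.555, 0.746, 1.42 and 0.427 FPKM in the PC3 libraries, a log2 fold change of -3.98 ± 0.29 with adjusted p = 2.77e-06. CTNNA1, alpha-catenin, which ties cadherins to actin, was at 12.5, 16.01, 12.3 and 14.2 FPKM in the BPH-1 libraries and 0.0514, 0.0381, 0.0719 and 0.0367 FPKM in the PC3 libraries, a log2 fold change of -3.81 ± 0.12 with adjusted p = 2.11e-08. The opposite change was seen for CDH2, N-cadherin of mesenchymal cells, at 5.96, 5.59, 5.65 and 3.20 FPKM in the BPH-1 libraries and 36.7, 33.3, 33.5 and 26.2 FPKM in the PC3 libraries, and for CDH11, cadherin of osteoblasts and stroma (0.294 ± 0.208 against 24.96 ± 8.55 FPKM). No library of either line crossed over in these 4 genes.

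Of 12 tested desmosome genes, 10 were lower and 1 higher, at a median of -1.60 (-0.75 GC-corrected). DSP, desmoplakin, which joins the plaque to keratin, was at 133 ± 29.3 against 6.09 ± 3.003 FPKM (log2 fold change -4.35 ± 0.36, adjusted p = 6.15e-06). DSG3, a desmoglein of basal keratinocytes, was at 13.3, 22.4, 14.3 and 22.9 FPKM in BPH-1 and at 0 in every PC3 library, at least 449-fold lower against the floor. PKP1, a plakophilin, was the member that rose (38.3 ± 5.97 against 72.0 ± 21.1 FPKM). Of 19 tight junction genes tested, 11 were lower and 3 higher at a median of -0.90 (10, 2 and -0.53 GC-corrected), with CLDN1 (119 ± 34.4 against 6.69 ± 1.38 FPKM) and MARVELD3 (5.80 ± 0.948 against 0.0152 ± 0.00657 FPKM) lower and CLDN3 (1.02 ± 0.618 against 57.8 ± 4.80 FPKM, log2 fold change 4.91 ± 0.20, adjusted p = 8.11e-08) higher. OCLN, occludin, was lower (3.15 ± 0.881 against 1.24 ± 0.581 FPKM), but its log2 fold change of -0.90 went to 0.01 after the GC correction and was no longer called (adjusted p = 0.939).

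Regulators and markers of the epithelial-mesenchymal transition differed as well. VIM, the intermediate filament of mesenchymal cells, was at 1.32, 1.32, 1.11 and 1.24 FPKM in the BPH-1 libraries and 144, 128, 96.8 and 114 FPKM in the PC3 libraries. Its lack of overlap between lines follows from the rule that named it among the largest rises. ESRP1, a splicing factor of epithelial cells (11.9 ± 1.39 against 0.0506 ± 0.0130 FPKM), and GRHL2, a transcription factor that maintains epithelial junctions (12.7 ± 1.62 against 0.0201 ± 0.0161 FPKM), fell, at log2 fold changes of -3.61 and -3.74. SNAI1, which represses E-cadherin, rose (0.489 ± 0.230 against 7.64 ± 5.32 FPKM, log2 fold change 2.36 ± 0.37, adjusted p = 3.45e-04), and ZEB1, another repressor, was called higher at a low level (0.0411 ± 0.0269 against 0.214 ± 0.125 FPKM) but not in a fit over all 3 lines (adjusted p = 0.0564). In the list of 15 tested members, which holds both epithelial and mesenchymal genes, 4 were higher and 9 lower. The members named here were taken from its leading genes and largest changes, and no tally by role was made.

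As among all tested genes, laminin chains and integrins changed in both directions. Of 10 laminin chains tested, 6 were lower and 3 higher. LAMB3, a chain of the hemidesmosomal laminin, was at 82.5, 125, 82.3 and 103 FPKM in the BPH-1 libraries and 37.5, 33.2, 30.3 and 75.1 FPKM in the PC3 libraries, and its partner chain LAMA3 (47.9 ± 12.8 against 12.9 ± 3.84 FPKM) fell with it, while LAMB2 (6.81 ± 2.02 against 19.9 ± 2.97 FPKM) and LAMC3 (0.00303 ± 0.00607 against 0.947 ± 0.156 FPKM) rose. Of 17 integrins, 4 were higher (23.5%) and 6 lower (35.3%), near the 27.2% and 40.5% of all tested genes. The counts were 5 and 8 after the GC correction and 4 and 8 with the same summed FPKM. ITGA3 rose (31.3 ± 5.80 against 98.2 ± 17.5 FPKM, log2 fold change 1.62 ± 0.17, adjusted p = 3.29e-05), whereas ITGAV (19.2 ± 2.18 against 1.504 ± 0.736 FPKM), ITGB6 (4.04 ± 1.79 against 0.00410 ± 0.00819 FPKM) and ITGA6, the laminin receptor of hemidesmosomes (75.7 ± 9.63 against 24.3 ± 10.01 FPKM), fell. ITGB4, the partner of ITGA6, was at 60.3 ± 12.3 against 40.3 ± 17.1 FPKM and missed the threshold (adjusted p = 0.0587), but was called lower after the GC correction at -1.19 and without PC3 replicate 3 (adjusted p = 0.00683).

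Of 23 tested collagen chains, 8 were higher and 9 lower. Beside COL17A1, COL7A1, the anchoring fibril chain (12.6 ± 3.17 against 0.749 ± 0.0672 FPKM), and COL4A1, a basement membrane chain (21.7 ± 2.73 against 6.62 ± 0.685 FPKM), fell. Matrix metalloproteinases, which cut the matrix, and their inhibitors gave 5 higher and 8 lower of 19, against 5 and 13 with the same summed FPKM and 4 and 11 after the GC correction. MMP2 had at most 2 reads in a PC3 library (11.9 ± 1.98 against 0.00767 ± 0.00966 FPKM), and MMP9 (9.97 ± 6.66 against 0.0651 ± 0.0393 FPKM) and MMP1 (7.64 ± 2.74 against 2.22 ± 0.914 FPKM) were lower as well, MMP1 no longer called after the GC correction (adjusted p = 0.0591). The inhibitor TIMP3 was at 0 in all PC3 libraries and at 3.02, 6.53, 4.02 and 5.85 FPKM in BPH-1, at least 99.5-fold lower against the floor. TIMP2 (11.7 ± 5.02 against 43.3 ± 6.94 FPKM) and the membrane protease MMP17 (0.710 ± 0.0937 against 4.30 ± 0.664 FPKM) rose.

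In the plasminogen system, which makes plasmin at the cell surface, both activators rose. PLAU, urokinase, was at 113 ± 36.7 against 213 ± 18.8 FPKM (log2 fold change 0.97 ± 0.21, adjusted p = 0.00283). PLAT, tissue plasminogen activator, was at 1.63 ± 0.439 against 32.3 ± 5.29 FPKM (log2 fold change 3.66 ± 0.16, adjusted p = 1.34e-07). SERPINB2, a plasminogen activator inhibitor, fell (25.99 ± 13.6 against 1.79 ± 0.379 FPKM). The urokinase receptor PLAUR was called higher (0.48, adjusted p = 0.0337) though its libraries overlapped, and was not called after the GC correction or without 1 library in 7 of the 8 cases, among them BPH-1 replicate 1 (adjusted p = 0.0786). Over the list, 3 of 9 were higher and 4 lower at a median of -0.03, which turned to 0.23 after the GC correction and to 0.14 with median-of-ratios scaling.

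CAVIN1, CAV1 and EHD2 of caveolae fell, while ANXA6 and ANXA11 rose. CAVIN1 was at 218, 195, 178 and 209 FPKM in the BPH-1 libraries and 0.0807, 0.133, 0.301 and 0.0605 FPKM in the PC3 libraries, a log2 fold change of -7.46 ± 0.11 with adjusted p = 1.33e-09. CAV1, the scaffold protein of caveolae, was at 53.5 ± 13.6 against 9.60 ± 1.796 FPKM and so kept a measurable level in every PC3 library. EHD2, which stabilises the caveolar neck, fell further (32.3 ± 13.5 against 0.367 ± 0.0718 FPKM). ANXA6 (2.66 ± 0.384 against 66.5 ± 4.32 FPKM) and ANXA11 (8.19 ± 1.38 against 50.9 ± 6.40 FPKM), which bind membranes in the presence of calcium, were the largest rises in the list, in which 5 of 15 were higher and 9 lower at a median of -0.89. After the GC correction 7 were higher and 8 lower, at a median of -0.27.

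Growth factor and cytokine genes did not move in 1 direction. In the EGFR family list, 7 of 14 tested were higher and 5 lower. EGFR itself fell (41.6 ± 4.61 against 11.5 ± 4.83 FPKM, log2 fold change -1.84 ± 0.24, adjusted p = 1.04e-04), and its ligand AREG, amphiregulin, rose from 14.4, 12.02, 17.5 and 11.7 FPKM in BPH-1 to 86.3, 89.9, 96.3 and 93.1 FPKM in PC3. ERRFI1, a feedback inhibitor of EGFR, rose (13.05 ± 1.57 against 80.4 ± 20.2 FPKM), and NRG1, a ligand of ERBB3 and ERBB4, fell (5.14 ± 1.49 against 0.00248 ± 0.00496 FPKM). ERBB2 was at 5.59 ± 0.612 against 4.89 ± 0.552 FPKM and was not called (adjusted p = 0.252).

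In the IL6, JAK and STAT list, 15 of 26 were lower and 6 higher (13 and 5 GC-corrected). STAT3, the transcription factor that carries IL6 signals to the nucleus, was at 15.1, 18.4, 13.2 and 14.7 FPKM in the BPH-1 libraries and 0.0315, 0.0446, 0.0588 and 0.0315 FPKM in the PC3 libraries, a log2 fold change of -3.96 ± 0.12 with adjusted p = 2.11e-08. STAT5B (7.45 ± 1.40 against 0.00491 ± 0.00981 FPKM) and STAT5A (2.46 ± 0.705 against 0 ± 0 FPKM), its neighbours on the chromosome, had at most 2 and 0 reads in any PC3 library. IL6 fell (2.56 ± 1.22 against 0.340 ± 0.183 FPKM), whereas LIF, leukaemia inhibitory factor, was at 4.85 ± 0.629 against 45.4 ± 7.47 FPKM (log2 fold change 2.98 ± 0.14, adjusted p = 2.16e-07) and the related cytokine CLCF1 at 2.18 ± 0.470 against 9.73 ± 3.86 FPKM.

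The chemokines that draw neutrophils rose among NF-kB target genes. CXCL1 was at 128, 149, 88.2 and 50.9 FPKM in the BPH-1 libraries and 1106, 1289, 1339.9 and 1305 FPKM in the PC3 libraries, a log2 fold change of 3.69 ± 0.29 with adjusted p = 4.55e-06, and no PC3 library overlapped BPH-1. CXCL6 (1.02 ± 0.520 against 85.4 ± 12.3 FPKM) and CXCL8 (39.2 ± 16.8 against 130.2 ± 31.8 FPKM) rose too. IL1A was at 179, 141, 134 and 64.6 FPKM in the BPH-1 libraries and 0.291, 0, 0.238 and 0 FPKM in the PC3 libraries, the reverse pattern. CCL5, which draws T cells, was at 0 in every PC3 library and at 3.84, 7.14, 4.63 and 3.52 FPKM in BPH-1, at least 45.3-fold lower. The whole list was split, with 10 of 25 higher and 11 lower, which turned to 11 and 9 after the GC correction and to 11 and 11 with median-of-ratios scaling.

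Interferon-stimulated genes were nearly all lower in PC3. Of 37 members, all of them tested, 32 were lower and 1 was higher, at a median of -1.79, against 40.5% and 27.2% of all tested genes and their median of -0.13. After the GC correction the counts were 32 and 1 and the median -1.62. IFIT3, which binds viral RNA complexes, was at 66.5, 112, 43.4 and 74.9 FPKM in the BPH-1 libraries and 1.87, 1.69, 1.04 and 0.556 FPKM in the PC3 libraries, a log2 fold change of -5.00 ± 0.29 with adjusted p = 6.89e-07. IFIT1 was at 13.5, 34.9, 9.16 and 15.8 FPKM in the BPH-1 libraries and 1.86, 1.89, 1.40 and 0.989 FPKM in the PC3 libraries. In both genes each BPH-1 library lay above each PC3 library, though the BPH-1 libraries themselves varied widely in IFIT1. IFI16, a nuclear DNA sensor, was at 23.7 ± 3.90 against 0.0112 ± 0.0177 FPKM (log2 fold change -4.60 ± 0.13, adjusted p = 1.33e-08). ISG15, a ubiquitin-like modifier, was at 40.6 ± 18.6 against 30.4 ± 5.67 FPKM and was not called (adjusted p = 0.298) except after the GC correction (-0.87, adjusted p = 0.00708), and CMPK2, a mitochondrial nucleotide kinase, was the member that was higher (0.0900 ± 0.0299 against 0.249 ± 0.0932 FPKM).

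Such genes are known to be switched on through an interferon-stimulated response element, whose core was searched as TTTCNNTTTC on both strands (GAAANNGAAA on the other) in the RefSeq promoter windows of build GRCh38.p14, from 250 bases before to 50 after the start. Promoters were matched for 28 of the 37 genes, and 18 of the 28 (64.3%) held the core, against 3.65% of all 27305 promoters. The list was made of genes known to respond to interferon, so this share does not bear on the difference between the lines. IFI16, which fell, held 0 copies of the core. The 250 bases before the start, 5′ to 3′ on the plus strand of each gene, are shown for IFIT1 (chr10:89392373-89392622) and IFIT3 (chr10:89327747-89327996), which fell, and for ISG15 (chr1:1013247-1013496), which was not called, with the core in capitals.
IFIT1: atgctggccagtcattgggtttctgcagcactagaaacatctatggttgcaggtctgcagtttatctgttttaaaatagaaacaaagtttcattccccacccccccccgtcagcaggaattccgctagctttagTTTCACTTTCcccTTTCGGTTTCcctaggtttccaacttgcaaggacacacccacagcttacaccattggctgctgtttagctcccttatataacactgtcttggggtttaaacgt
IFIT3: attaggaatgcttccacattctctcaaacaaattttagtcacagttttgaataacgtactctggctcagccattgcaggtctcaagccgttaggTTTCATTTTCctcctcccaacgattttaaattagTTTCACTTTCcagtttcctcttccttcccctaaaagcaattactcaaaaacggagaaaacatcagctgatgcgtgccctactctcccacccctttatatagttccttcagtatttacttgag
ISG15: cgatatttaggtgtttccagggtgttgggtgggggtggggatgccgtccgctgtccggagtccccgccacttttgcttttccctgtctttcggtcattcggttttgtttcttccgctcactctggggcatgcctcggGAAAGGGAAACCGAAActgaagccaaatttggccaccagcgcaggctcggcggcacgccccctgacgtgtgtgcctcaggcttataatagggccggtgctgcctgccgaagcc
All 3 windows hold 2 copies of the core, which overlap in ISG15, so ISG15 does not differ from the other 2 in this count. A match describes letters in the window and was not tested as a site.

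Of 17 tested genes of HLA class I antigen presentation, which brings peptides to T cells, 12 were lower (70.6%) and 0 higher. Among all tested genes 40.5% were lower and 27.2% higher. After the GC correction 13 of the 17 were lower and 1 higher. The summed FPKM of the list overlapped between the lines, at 785 to 998 in BPH-1 and 613 to 972 in PC3. PSMB9, an immunoproteasome subunit (8.82 ± 3.09 against 0.635 ± 0.125 FPKM, log2 fold change -2.53 ± 0.22, adjusted p = 9.81e-06), and ERAP2, which trims peptides (10.6 ± 3.95 against 1.36 ± 0.837 FPKM), had the largest falls. B2M, the shared light chain, was at 11.2 ± 5.11 against 7.21 ± 3.03 FPKM and was not called (adjusted p = 0.227), and its log2 fold change went from -0.57 to 0.59 after the GC correction. HLA alleles are highly similar and reads may be shared between these genes, which makes their single values uncertain.

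The developmental signalling lists were mixed. Of 38 TGF-beta and BMP genes tested, 12 were higher and 15 lower, and after the GC correction 15 and 11, so that the balance turned over. INHBB, an activin subunit (0.971 ± 0.329 against 54.1 ± 14.9 FPKM, log2 fold change 4.78 ± 0.21, adjusted p = 1.22e-07), and FST, follistatin, which binds activin (1.74 ± 0.870 against 37.0 ± 6.88 FPKM), rose. TGFBI, a secreted TGF-beta target, was at 28.7, 27.1, 23.7 and 17.3 FPKM in the BPH-1 libraries and 0.133, 0.0533, 0.101 and 0.118 FPKM in the PC3 libraries, and ID4, a BMP target (7.91 ± 2.13 against 0.0159 ± 0.0184 FPKM), fell as well. Of 34 WNT genes, 11 were higher and 11 lower, and the balance moved to 10 and 16 with the same summed FPKM and to 10 and 13 after the GC correction. DKK1, a secreted WNT antagonist, was at 25.1, 11.9, 19.3 and 18.9 FPKM in the BPH-1 libraries and 329, 289, 265 and 270.3 FPKM in the PC3 libraries, a log2 fold change of 3.91 ± 0.19 with adjusted p = 2.59e-07. The receptor FZD8 was at 1.30 ± 0.234 against 144 ± 14.9 FPKM and AXIN2, a feedback target of the pathway, at 0.00580 ± 0.00669 against 1.01 ± 0.123 FPKM, both higher in PC3. WNT10A (9.13 ± 3.28 against 0.132 ± 0.0222 FPKM) and the antagonist DKK3 (5.61 ± 2.98 against 0.00805 ± 0.00930 FPKM) fell.

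Of 22 Notch genes tested, 8 were higher and 8 lower, against 7 and 10 with the same summed FPKM and 8 and 6 with median-of-ratios scaling. The targets HEY1 (0.181 ± 0.0492 against 2.96 ± 0.417 FPKM) and HES1 (8.16 ± 1.32 against 15.6 ± 4.69 FPKM) rose, and the ligand DLL1 (4.95 ± 1.49 against 0.0256 ± 0.0393 FPKM) and the receptor NOTCH3 (4.66 ± 3.72 against 0.347 ± 0.126 FPKM) fell. In the YAP and TAZ list, which are coactivators that respond to cell shape, 14 of 22 were lower and 3 higher at a median of -1.11 (-0.76 GC-corrected). TEAD2, a DNA-binding partner of YAP (3.77 ± 0.338 against 22.1 ± 2.29 FPKM), and WWTR1, which encodes TAZ (7.45 ± 1.02 against 17.2 ± 4.92 FPKM), rose, and NT5E, the ecto-nucleotidase CD73 (28.3 ± 5.59 against 2.37 ± 0.777 FPKM), fell with F3. The common readouts CYR61 (109.9 ± 38.9 against 71.1 ± 23.96 FPKM) and CTGF (17.7 ± 5.53 against 16.9 ± 6.44 FPKM) were not called, at log2 fold changes of -0.62 and -0.09, and CYR61 was called lower without BPH-1 replicate 4 (adjusted p = 0.0334).

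Some growth control genes are given here by a rule that takes leading genes and called members in each direction, so their balance follows from the rule. CDKN1A, the p21 inhibitor of the cell cycle (27.6 ± 6.44 against 5.70 ± 3.001 FPKM), and BTG2 (12.1 ± 2.47 against 0.616 ± 0.195 FPKM) fell, while GDF15, a stress cytokine (3.08 ± 1.32 against 20.1 ± 10.9 FPKM), and PHLDA3, an AKT inhibitor (5.53 ± 2.80 against 10.8 ± 1.40 FPKM), rose, though PHLDA3 was not called after the GC correction (adjusted p = 0.102). Of 25 PI3K pathway genes, 7 were higher and 12 lower, against 3 and 11 after the GC correction and 3 and 14 with the same summed FPKM. INPP4B, a phosphoinositide phosphatase, fell (5.12 ± 0.887 against 0.155 ± 0.0795 FPKM), and PHLPP1, which dephosphorylates AKT (2.24 ± 0.418 against 6.84 ± 0.604 FPKM), rose.

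**Figure D4:**
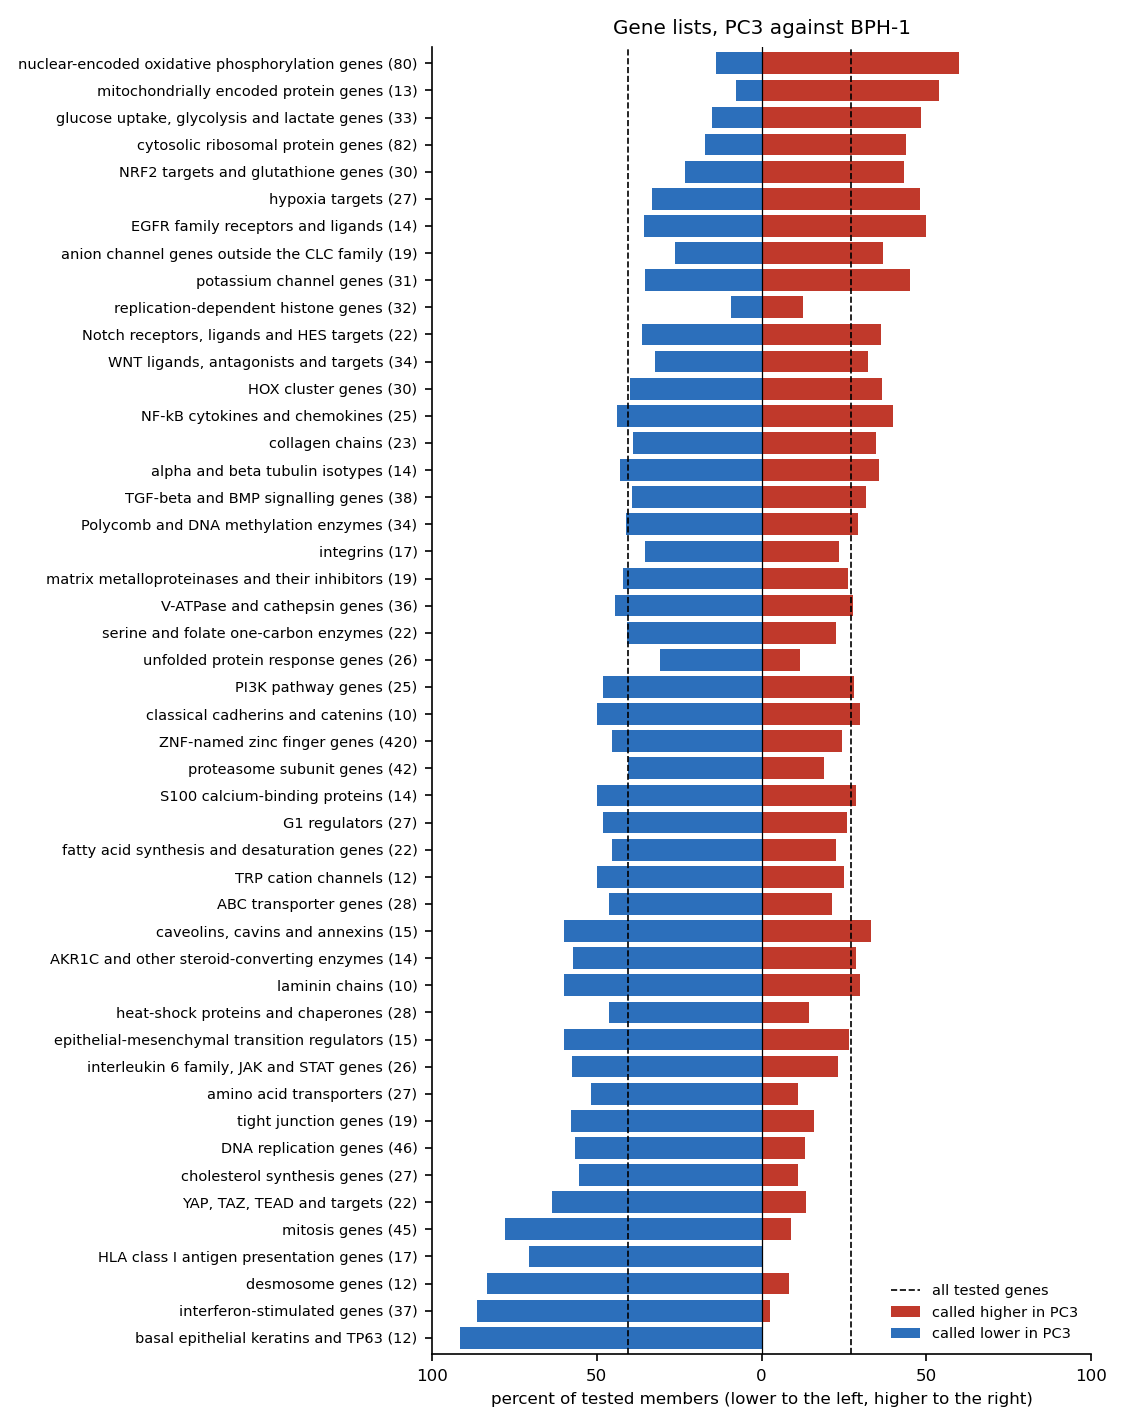
Percent of the tested members of each gene list called higher (red, to the right) and lower (blue, to the left) in PC3, with the number of tested members behind each name, for most lists with at least 10 tested members. The dashed lines mark the 27.2% higher and 40.5% lower of all tested genes, and the basal, interferon-stimulated, desmosome and mitosis lists have the highest percentages lower.

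Mitosis genes were mostly lower in PC3, by less after the GC correction. Of 45 mitosis genes, 35 were lower and 4 higher at a median of -0.92, which became 30, 3 and -0.59 after the correction. TOP2A, which untangles DNA, was at 109, 103, 100.8 and 91.6 FPKM in the BPH-1 libraries and 11.3, 7.39, 2.37 and 1.05 FPKM in the PC3 libraries, and CENPF, a kinetochore protein, at 47.0, 30.1, 46.1 and 41.8 FPKM in the BPH-1 libraries and 3.74, 1.70, 0.652 and 0.352 FPKM in the PC3 libraries. The PC3 libraries themselves spread widely in both genes, from highest to lowest by far more than the BPH-1 libraries, and the log2 fold changes of -4.30 and -4.17 became -2.92 and -3.25 with the correction. CCNB1, the mitotic cyclin, was lower (43.5 ± 6.28 against 22.4 ± 1.18 FPKM) but moved from -0.92 to -0.18 with the correction and was no longer called (adjusted p = 0.456), and AURKA, a spindle kinase, was at 30.7 ± 3.45 against 17.8 ± 4.96 FPKM. MYBL2, a transcription factor of dividing cells (42.7 ± 1.78 against 112 ± 11.5 FPKM, log2 fold change 1.36 ± 0.10, adjusted p = 2.92e-06), and BIRC5, survivin (6.62 ± 0.556 against 18.1 ± 3.80 FPKM), rose.

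Of 46 DNA replication genes, 26 were lower and 6 higher (22 and 7 GC-corrected). PCNA, the sliding clamp (155 ± 17.7 against 81.2 ± 19.1 FPKM), and MCM2, of the replicative helicase (38.4 ± 4.05 against 22.2 ± 1.63 FPKM), fell, at log2 fold changes of -0.95 and -0.76. ORC3 (16.4 ± 0.996 against 1.85 ± 1.07 FPKM) and POLA1 (15.6 ± 2.35 against 2.60 ± 1.78 FPKM) had the largest falls, and TYMS, thymidylate synthase (24.4 ± 3.64 against 75.9 ± 4.62 FPKM), and TK1, thymidine kinase (13.2 ± 2.17 against 33.7 ± 5.19 FPKM), the largest rises. Among the 27 G1 regulators, 7 were higher and 13 lower. CCND1, a D-type cyclin, was at 79.9, 62.0, 72.4 and 61.8 FPKM in the BPH-1 libraries and 189.7, 183, 172 and 182 FPKM in the PC3 libraries, while the related CCND2 was at 56.2, 41.0, 45.9 and 35.5 FPKM in the BPH-1 libraries and 0.0199, 0.0188, 0.0279 and 0.0299 FPKM in the PC3 libraries, so that the 2 D-type cyclins changed in opposite directions without overlap. CDK6 (28.7 ± 3.92 against 1.23 ± 0.697 FPKM), CDKN2A, which encodes p16 (33.8 ± 5.76 against 10.7 ± 0.862 FPKM), and RB1, which encodes the retinoblastoma protein (12.5 ± 1.18 against 1.77 ± 1.14 FPKM), were lower, and CDKN2C, which encodes p18, was higher (2.51 ± 0.400 against 9.83 ± 2.74 FPKM). RB1 went from -2.38 to -0.98 with the GC correction and remained called (adjusted p = 0.00119).

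Most of the 32 replication-dependent histone genes tested were not called, with 21.9% called against 67.6% of all tested genes. Of the 32, 4 were higher and 3 lower, which turned to 1 and 3 with the same summed FPKM. Histone transcripts of this kind are known to lack the poly(A) tails that many kits select. In the list of Polycomb and DNA methylation enzymes, 10 of 34 were higher and 14 lower at a median of -0.12 (0.01 with upper-quartile scaling). PHC2, of the PRC1 complex, rose (5.25 ± 0.348 against 32.0 ± 2.41 FPKM, log2 fold change 2.40 ± 0.10, adjusted p = 9.06e-08), SUZ12, of PRC2, fell (11.99 ± 1.70 against 1.46 ± 0.736 FPKM, -2.44, or -1.11 GC-corrected), and BMI1 rose (2.75 ± 0.4997 against 7.09 ± 2.59 FPKM). EZH2, the PRC2 methyltransferase, was called lower at -0.48 and was called higher, at 0.29, with the correction (adjusted p = 0.0205). DNMT3B, a de novo DNA methyltransferase, fell (5.42 ± 1.58 against 2.66 ± 0.307 FPKM). Of 420 tested genes named ZNF, 102 were higher and 191 lower at a median of -0.20, against 124, 138 and -0.05 after the correction. ZNF503 had the largest rise (4.41 ± 0.731 against 76.2 ± 5.31 FPKM) and ZNF146 the largest fall (26.4 ± 6.19 against 1.87 ± 1.33 FPKM).

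More genes of oxidative phosphorylation were higher than lower in PC3. Of 80 tested nuclear genes of oxidative phosphorylation, 48 were higher and 11 lower at a median of 0.42, and 48 and 7 at 0.51 after the GC correction. With the libraries scaled to the same summed FPKM, the counts were 28 and 19. CYC1, of the cytochrome bc1 complex, was at 19.5, 18.7, 20.3 and 22.5 FPKM in the BPH-1 libraries and 91.9, 76.8, 76.8 and 92.2 FPKM in the PC3 libraries, a log2 fold change of 2.004 ± 0.11 with adjusted p = 4.32e-07. COX6C (10.04 ± 0.702 against 37.2 ± 6.39 FPKM) and NDUFA4 (9.33 ± 1.61 against 21.5 ± 4.87 FPKM), of the last complex of the chain, rose, and UQCRC2 of the cytochrome bc1 complex fell (32.8 ± 3.07 against 14.496 ± 1.85 FPKM). Of the 13 protein genes of the mitochondrial genome, 7 were higher and 1 lower (11 and 0 GC-corrected). MT-CO1 was at 7186, 7482, 7815 and 8710.3 FPKM in the BPH-1 libraries and 15359.6, 16202, 15748 and 13583 FPKM in the PC3 libraries, and MT-ND1 at 2671 ± 151 against 6821 ± 856 FPKM. MT-CO3 was called lower at -0.33 (adjusted p = 0.0419), with overlap between lines, and lost the call without PC3 replicate 3 or 4 or BPH-1 replicate 1, 2 or 4 (highest adjusted p = 0.104). Such genes take a large part of summed FPKM, and the share of the 10 highest genes was 22.1% to 24.4% in BPH-1 and 25.01% to 30.7% in PC3.

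Of 33 genes of glucose uptake, glycolysis and lactate, 16 were higher and 5 lower at a median of 0.30 (0.31 GC-corrected, and 0.03 with the same summed FPKM). SLC16A3, the lactate exporter MCT4, was at 2.78, 3.91, 2.46 and 3.65 FPKM in the BPH-1 libraries and 25.02, 29.6, 36.1 and 36.1 FPKM in the PC3 libraries, a log2 fold change of 2.96 ± 0.16 with adjusted p = 5.03e-07. SLC16A1, the related carrier MCT1, fell (27.7 ± 3.21 against 12.2 ± 3.61 FPKM). PFKFB4, which sets the level of a glycolytic activator, rose (1.29 ± 0.0640 against 9.88 ± 3.85 FPKM). LDHB (106 ± 11.02 against 57.8 ± 4.58 FPKM), the lactate dehydrogenase chain that favours pyruvate, and the transporter SLC2A12 (6.24 ± 5.65 against 0.375 ± 0.238 FPKM) fell. Of 27 hypoxia genes, 13 were higher and 9 lower, against 9 and 10 with the same summed FPKM and 12 and 5 after the GC correction. PLOD1, which hydroxylates collagen, rose (26.8 ± 6.25 against 94.1 ± 16.7 FPKM), and CA9, a surface carbonic anhydrase, fell (7.93 ± 3.70 against 0.484 ± 0.241 FPKM, log2 fold change -2.52 ± 0.26, adjusted p = 2.47e-05). HIF1A, the oxygen-regulated factor, was at 47.1, 42.6, 48.5 and 44.1 FPKM in BPH-1 and 20.2, 16.7, 7.83 and 2.45 FPKM in PC3. It was called lower at -2.17, but at -0.32 after the GC correction it was not (adjusted p = 0.356).

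As among all tested genes, more sterol synthesis genes were lower than higher in PC3. Of 27 cholesterol synthesis genes, 15 were lower (55.6%) and 3 higher (11.1%), against 40.5% and 27.2% of all tested genes. Their median was -0.42 (-0.48 GC-corrected). With median-of-ratios scaling 11 were lower and 3 higher, at a median of -0.25, against 5912 and 5205 of all 16346 tested genes. MSMO1, a sterol demethylation enzyme, fell (8.68 ± 3.16 against 1.71 ± 0.880 FPKM), though it was not called after the GC correction (adjusted p = 0.191). SCAP, the sterol sensor partner (5.83 ± 0.496 against 16.8 ± 1.47 FPKM), and PMVK, phosphomevalonate kinase (13.3 ± 0.565 against 38.3 ± 3.07 FPKM), rose. Of 22 fatty acid genes, 5 were higher and 10 lower. FADS2, a desaturase of polyunsaturated fatty acids, rose (0.869 ± 0.170 against 12.2 ± 0.993 FPKM, log2 fold change 2.82 ± 0.12, adjusted p = 8.95e-08), and SCD, the desaturase of saturated fatty acids (139 ± 19.3 against 59.2 ± 9.84 FPKM), and ACSL4 (19.3 ± 1.62 against 1.57 ± 0.963 FPKM), which activates polyunsaturated fatty acids, fell. FASN, fatty acid synthase, was lower by a small amount (55.3 ± 3.56 against 43.8 ± 2.998 FPKM, adjusted p = 0.011) that was not called with median-of-ratios scaling (adjusted p = 0.161).

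Detoxification and redox genes varied member by member. In the NRF2 and glutathione list, 13 of 30 were higher and 7 lower. GSTM3, a glutathione transferase (0.158 ± 0.0178 against 8.57 ± 1.42 FPKM, log2 fold change 3.04 ± 0.13, adjusted p = 9.53e-08), and ABCC3, an exporter of conjugates (0.536 ± 0.184 against 8.27 ± 0.815 FPKM), rose. SLC7A11, the cystine transporter (9.77 ± 4.32 against 0.988 ± 0.404 FPKM), and GSTP1, the glutathione transferase known to be silenced in prostate cancer (72.9 ± 10.02 against 43.6 ± 5.27 FPKM), fell. NQO1 was at 20.4 ± 12.4 against 19.1 ± 7.63 FPKM and was not called. Of 14 steroid-converting enzymes, 4 were higher and 8 lower, and 5 and 4 after the correction. AKR1C3, which makes testosterone from androstenedione, rose (0.592 ± 0.530 against 2.53 ± 0.735 FPKM), SRD5A3 rose (1.78 ± 0.241 against 4.32 ± 0.466 FPKM) and SRD5A1, a steroid 5-alpha-reductase, fell (3.98 ± 0.345 against 1.68 ± 0.319 FPKM). AKR1C genes are near-identical copies and may share reads.

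Of 22 serine and folate enzymes, 5 were higher and 9 lower, which turned to 7 and 5 after the GC correction and to 7 and 7 with upper-quartile scaling. SHMT2, which passes a carbon from serine to folate in mitochondria, rose (6.69 ± 0.811 against 13.9 ± 0.431 FPKM), and MTR, methionine synthase, fell (6.76 ± 0.473 against 1.11 ± 0.463 FPKM). PHGDH, the entry enzyme of serine synthesis, missed the threshold (4.15 ± 0.945 against 5.34 ± 0.279 FPKM, adjusted p = 0.0717) but was called higher without BPH-1 replicate 3 (adjusted p = 0.0178). The 4 metallothioneins with enough reads, which bind zinc and copper, were all lower. MT2A was at 81.1, 81.8, 72.7 and 33.0 FPKM in the BPH-1 libraries and 15.2, 10.4, 5.58 and 10.1 FPKM in the PC3 libraries and MT1E at 8.97, 10.1, 8.16 and 6.52 FPKM in the BPH-1 libraries and 0.151, 0, 0.282 and 0 FPKM in the PC3 libraries, with no PC3 library reaching a BPH-1 library. The other 7 metallothionein genes were too low to test.

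Ion channel genes outside the CLC family changed in both directions. Of 31 potassium channel genes tested, 14 were higher and 11 lower (11 and 11 with the same summed FPKM). KCNMA1, the BK channel, was at 0.129, 0.0997, 0.112 and 0.132 FPKM in the BPH-1 libraries and 2.42, 2.80, 3.01 and 2.22 FPKM in the PC3 libraries, and KCNJ12, an inward rectifier, rose too (0.268 ± 0.1003 against 5.06 ± 0.850 FPKM), as did KCNN4, a calcium-activated channel (1.52 ± 0.436 against 4.68 ± 0.980 FPKM). KCNK5, an acid-sensitive background channel, was at 3.63, 3.28, 3.41 and 3.65 FPKM in BPH-1 and 0 in every PC3 library, at least 58.4-fold lower against the floor. Of 12 TRP channels, 3 were higher and 6 lower. TRPM2, which opens on oxidative stress (0.00493 ± 0.00329 against 2.50 ± 0.420 FPKM), and MCOLN1, of lysosomes (2.27 ± 0.162 against 9.86 ± 1.99 FPKM), rose, and TRPM7 (8.48 ± 1.122 against 0.679 ± 0.438 FPKM) and TRPV4 (1.66 ± 0.764 against 0.283 ± 0.126 FPKM) fell.

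Of 9 sodium channel subunits, 5 were higher and 3 lower. The epithelial sodium channel subunits differed, with SCNN1B (0.00292 ± 0.00585 against 1.799 ± 0.974 FPKM) and SCNN1G (0.0228 ± 0.0457 against 2.58 ± 2.21 FPKM) higher and SCNN1A lower (0.683 ± 0.333 against 0.246 ± 0.0529 FPKM). Among the 7 calcium channel subunits tested, 3 were higher and 2 lower. CACNA1H, a T-type channel, was at 0 in every BPH-1 library and at 1.74, 2.01, 2.15 and 1.89 FPKM in PC3, at least 155-fold above the floor, and CACNG4 fell (4.77 ± 2.004 against 0.0225 ± 0.0323 FPKM). Of 19 anion channel genes of the anoctamin, LRRC8, CLIC, tweety and bestrophin families, 7 were higher and 5 lower (7 and 7 with the same summed FPKM). ANO1, the calcium-activated chloride channel, was at 1.83, 1.88, 1.86 and 2.24 FPKM in the BPH-1 libraries and 13.4, 12.2, 11.6 and 12.9 FPKM in the PC3 libraries, and TTYH2 rose (0.738 ± 0.216 against 10.7 ± 1.93 FPKM), while ANO6, a lipid scramblase (9.87 ± 1.45 against 2.76 ± 1.54 FPKM), and CLCA2, a channel regulator of basal epithelium (4.37 ± 2.08 against 0.0399 ± 0.0477 FPKM), fell. LRRC8A, the obligate subunit of the volume-regulated channel, was at 13.1 ± 1.29 against 11.2 ± 1.30 FPKM and was not called (adjusted p = 0.134), though it was called lower without PC3 replicate 4 (adjusted p = 0.0409).

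Of 28 ABC transporters, 6 were higher and 13 lower. ABCA3, a lipid transporter, rose (0.180 ± 0.0951 against 10.1 ± 0.955 FPKM, log2 fold change 3.24 ± 0.11, adjusted p = 4.37e-08). ABCA12, the lipid transporter of keratinocytes, was at 0 in every PC3 library and at 1.62, 4.63, 1.14 and 3.81 FPKM in BPH-1. The drug pump ABCB1 was too low to test (0.165 ± 0.0772 against 0 ± 0 FPKM), and ABCC1 was not called (14.4 ± 0.520 against 12.8 ± 1.14 FPKM). Of 27 amino acid transporters, 14 were lower and 3 higher, and 13 and 7 after the GC correction. SLC7A5, the leucine carrier LAT1, was at 378, 202, 259 and 259 FPKM in the BPH-1 libraries and 55.7, 48.7, 45.9 and 82.8 FPKM in the PC3 libraries, a log2 fold change of -2.22 ± 0.23 with adjusted p = 2.31e-05. SLC7A8, its relative LAT2, fell further (14.1 ± 4.87 against 0.0570 ± 0.0206 FPKM). SLC43A1, another leucine carrier first found in prostate cancer, rose (0.398 ± 0.166 against 3.88 ± 0.736 FPKM), and SLC1A5, the glutamine carrier, was not called (36.3 ± 9.16 against 33.2 ± 7.83 FPKM).

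Among V-ATPase and cathepsin genes of the lysosome, 10 of 36 were higher and 16 lower, which turned to 15 and 11 after the GC correction and to 13 and 13 with median-of-ratios scaling. CTSZ rose (58.5 ± 3.92 against 157 ± 17.8 FPKM), and CTSB (32.6 ± 17.2 against 6.22 ± 0.875 FPKM) and CTSS (3.63 ± 1.004 against 0.0354 ± 0.0264 FPKM), other cathepsin proteases, fell.

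Of 82 cytosolic ribosomal protein genes, 36 were higher and 14 lower at a median of 0.15, which became 26, 30 and -0.11 with the same summed FPKM and 0.36 after the GC correction, so the direction depends on the scaling. RPL39L, a testis-enriched copy of RPL39, was at 0.487, 0.295, 0.290 and 0.337 FPKM in the BPH-1 libraries and 19.4, 15.1, 22.7 and 22.3 FPKM in the PC3 libraries. RPS28 was at 0.592 ± 0.106 against 26.7 ± 2.38 FPKM, but ribosomal protein genes have many processed copies in the genome and their single values are uncertain. RPL3 rose (29.7 ± 2.63 against 48.9 ± 6.12 FPKM) and RPL26 fell (56.8 ± 7.54 against 25.5 ± 3.21 FPKM). Of 42 proteasome subunits, 8 were higher and 17 lower, which turned to 16 and 9 after the GC correction and to 3 and 24 with the same summed FPKM.

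Of 28 heat-shock proteins and chaperones, 4 were higher (14.3%) and 13 lower (46.4%), against 27.2% and 40.5% of all tested genes. With median-of-ratios scaling the counts were 8 and 12. In the main fit 11 were called with a log2 fold change beyond 1, as were 27.1% of all tested genes. HSPB8, a small heat-shock protein, fell (15.996 ± 5.26 against 0.00573 ± 0.0115 FPKM, log2 fold change -4.03 ± 0.20, adjusted p = 3.06e-07), and HSF1, the heat-shock transcription factor, rose (3.10 ± 0.529 against 8.78 ± 0.672 FPKM). HSPA1A (227 ± 18.4 against 321 ± 126 FPKM) and HSPB1 (82.1 ± 30.3 against 119 ± 17.1 FPKM) were not called, but HSPB1 was called higher without BPH-1 replicate 2 (adjusted p = 0.0332) or 4 (adjusted p = 0.0311). Among unfolded protein response genes, 3 of 26 were higher and 8 lower at a median of -0.26 (0.01 GC-corrected), against 1 higher and 14 lower with the same summed FPKM. In the main fit 42.3% of them were called, below the 67.6% of all tested genes. HSPA5, the ER chaperone BiP, was at 654, 432, 606 and 478 FPKM in the BPH-1 libraries and 243, 251, 138 and 219.8 FPKM in the PC3 libraries, and HSP90B1, the ER form of HSP90, at 332, 247, 436 and 405 FPKM in the BPH-1 libraries and 64.3, 64.1, 31.1 and 21.7 FPKM in the PC3 libraries, and both were lower in PC3 without overlap. ERN1, a sensor of unfolded protein, rose (1.79 ± 0.187 against 6.88 ± 0.909 FPKM), and DDIT3, which encodes CHOP, was at 1.81 ± 0.578 against 1.67 ± 0.323 FPKM.

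Of 14 tubulin isotypes, 5 were higher and 6 lower. TUBB4A rose from 0.0354, 0.0357, 0 and 0.0786 FPKM to 5.87, 6.61, 9.20 and 7.25 FPKM, and TUBA1B (84.1 ± 15.7 against 189 ± 51.5 FPKM) and TUBA1A (10.9 ± 2.40 against 24.9 ± 4.98 FPKM) rose, while TUBB2B fell (3.45 ± 1.56 against 0.111 ± 0.0657 FPKM). TUBB3, the isotype studied in taxane resistance, was at 10.4 ± 5.93 against 9.65 ± 1.27 FPKM and was not called. Of 14 S100 proteins, 4 were higher and 7 lower. S100A4 (2.27 ± 0.174 against 10.5 ± 1.79 FPKM) and S100A6 (53.1 ± 8.91 against 195 ± 46.2 FPKM) rose, and S100A14 (81.3 ± 15.4 against 1.20 ± 0.298 FPKM) and S100A9, a calprotectin subunit (284 ± 262 against 3.44 ± 0.831 FPKM), fell. S100A9 varied widely within BPH-1, where its libraries were at 80.6, 636, 87.2 and 330.5 FPKM.

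Some runs of neighbouring genes were at or near 0 reads in 1 line. Of 24 runs of at least 3 adjacent tested coding genes with at most 3 reads in every library of a line, 19 were of genes near 0 in PC3 and 5 of genes near 0 in BPH-1. A run on chromosome 17 held DHX58, KAT2A, AC099811.2, RAB5C, GHDC, STAT5B and STAT5A, from 42101404 to 42311943 (build GRCh38). KAT2A, a histone acetyltransferase, was at 12.04, 14.6, 13.6 and 11.1 FPKM in the BPH-1 libraries and 0.0393, 0.0124, 0 and 0.0262 FPKM in the PC3 libraries, and RAB5C, of early endosomes, at 14.9, 16.6, 17.5 and 19.97 FPKM in the BPH-1 libraries and 0, 0, 0.0414 and 0 FPKM in the PC3 libraries. The next genes along the chromosome, STAT3, CAVIN1 and ATP6V0A1, had at most 12, 16 and 9 reads in any PC3 library, and ATP6V0A1, a V-ATPase subunit, was at 2.63 ± 0.546 against 0.0173 ± 0.0101 FPKM. On one side the nearest tested genes were also low in PC3, with C17orf113 at 1.04 ± 0.220 against 0.136 ± 0.0486 FPKM and ZNF385C at 0.419 ± 0.207 against 0.0769 ± 0.0357 FPKM, at most 9 and 11 reads in a PC3 library. NKIRAS2 came next at 2.51 ± 0.498 against 2.21 ± 0.417 FPKM and was not called (adjusted p = 0.473). DNAJC7 lay farther out at 13.4 ± 1.45 against 5.66 ± 0.523 FPKM. On the other side NAGLU was at 1.88 ± 0.309 against 0.956 ± 0.169 FPKM, HSD17B1 at 0.557 ± 0.0743 against 0.169 ± 0.0556 FPKM and COASY at 7.14 ± 0.323 against 6.70 ± 1.117 FPKM. These flanking genes were chosen after their values were seen. Loss of DNA and lack of transcription cannot be told apart from RNA.

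**Figure D5:**
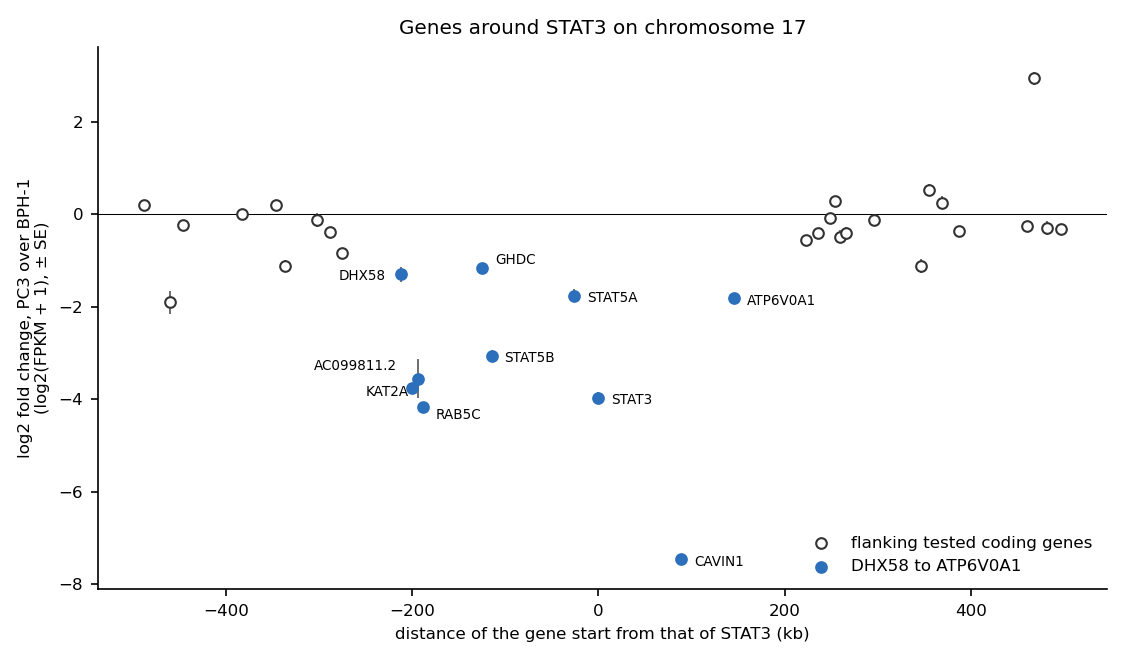
Log2 fold change of PC3 over BPH-1 on log2(FPKM + 1), with its standard error, for tested coding genes of chromosome 17 by distance of the gene's start from that of STAT3 in kilobases. Filled points mark the 10 genes from DHX58 to ATP6V0A1, which lie from -1.17 to -7.46, and the flanking genes (open points) lie between -1.91 and 2.94.

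Several other runs near 0 in PC3 held genes of the cornified epithelium, and others held genes of other kinds. On chromosome 1, IVL, involucrin (23.4 ± 20.1 against 0.0179 ± 0.0359 FPKM), lay with SPRR1A (25.95 ± 26.1 against 0 ± 0 FPKM), SPRR1B (28.4 ± 26.4 against 0 ± 0 FPKM) and 4 more SPRR genes, which crosslink into the cornified envelope, and nearby S100A8 (13.7 ± 11.9 against 0 ± 0 FPKM), S100A7 (31.0 ± 37.6 against 0 ± 0 FPKM), S100A12 and S100A7A formed another. KLK5, KLK6 and KLK7, proteases of the skin surface, made up a further run, as did IL36G, IL36RN and IL1RN, of the IL1 family. TMPRSS11E (22.2 ± 5.55 against 0 ± 0 FPKM), MUC7 and AMTN (37.8 ± 19.8 against 0 ± 0 FPKM) made up another. It spans 68447449 to 70532742 on chromosome 4, and its genes are adjacent only among tested coding genes. The HLA class II genes HLA-DRA (4.003 ± 0.565 against 0 ± 0 FPKM), HLA-DRB1 and HLA-DQB1, the interferon-induced GBP4, GBP5 and GBP6, and OLR1, a receptor for oxidised LDL (33.6 ± 10.4 against 0 ± 0 FPKM), with CLEC7A and TMEM52B were likewise at most at 3 reads in PC3. The remaining runs included GIMAP4, GIMAP6 and 3 more GIMAP genes with NOS3 on chromosome 7, and DUOX1, DUOX2 and DUOXA1, which make hydrogen peroxide, on chromosome 15. Of the genes in the 5 runs near 0 in BPH-1, TMEM200C had the highest mean in PC3 (0 ± 0 against 3.40 ± 0.273 FPKM) and lay in a run with L3MBTL4 and ARHGAP28 on chromosome 18. The others were PCDHA4, PCDHA5 and PCDHA12, protocadherins of the nervous system on chromosome 5, and 3 runs of zinc finger genes on chromosome 19 that included ZNF320 (0.00382 ± 0.00538 against 0.981 ± 0.685 FPKM), ZNF468 (0.00964 ± 0.00643 against 0.804 ± 0.387 FPKM) and ZNF677 (0.00212 ± 0.00424 against 0.798 ± 0.230 FPKM).

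Leaving out the mitochondrial genome (0.39), the median log2 fold change by chromosome ran from -0.52 on chromosome 13 and -0.37 on chromosome 4 to 0.15 on chromosome 20 and 0.20 on chromosome 21. Chromosomes differ in GC content, with a median of 42.9% for tested genes of chromosome 4 and 58.2% for chromosome 19, and the order changed with the correction. GC-corrected medians were lowest on chromosome 16 (-0.32) and chromosome 9 (-0.24) and highest on chromosome 21 (0.28) and chromosome 3 (0.26), with the mitochondrial genome at 1.13. On chromosome 16, 389 of 763 tested genes were then lower and 82 higher, and on chromosome 3, 437 of 898 were higher and 196 lower. By gene class, 3616 of 13374 coding genes were higher and 5562 lower, 355 and 546 of 1384 long noncoding RNAs, and 424 and 446 of 1419 pseudogenes, whose reads may come from their parent genes.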

How the data were processed

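RNA-seq libraries were made by the authors from total RNA, extracted with TRIzol, with an NEB Ultra kit. Per the labels, CASAVA 1.8, HISAT2 2.1.0, edgeR (no version or role given) and build GRCh38 were used, while the counting program, annotation and use of strand are not given in the sources used here. The deposited table holds 1 FPKM value per gene and library, with replicates not pooled and no column left without a sample. The unit was read from the values: low values were whole multiples of 1 read for each gene's summed exon length in GENCODE release 29, within 0.05 of a read for 95.8% to 96.6% of them. That length adds up every distinct annotated exon. Of low values of coding genes, 93.2% to 94.1% were whole on it, against 19.1% to 22.0% with overlapping exons merged. No 2 libraries of a line agreed within counting noise (chi-square of 17.3 to 87.5 per gene).

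A gene was kept where 4 or more of the 8 libraries held 10 or more reads, taken at the median depth, and all of them together 15 or more. Differences in log2(FPKM + 1) between PC3 and BPH-1 were tested (two-sided, no covariate) with limma 3.58.1, its trend option and R 4.3.3, and p-values were adjusted by Benjamini-Hochberg over all tested genes. The DU145 libraries entered 1 alternative only. With 4 libraries against 4 the exact permutation test cannot give a p below 0.0286, so single genes were read from the limma fit. The GC correction divided out a natural spline (5 degrees of freedom) of log2 FPKM against transcript GC content in each library, fitted on genes with a mean of at least 50 reads. The floor for a gene at 0 was 3 reads per library and covers counting error only. Limma's voom on the recovered reads, other scalings, filters and a pseudocount of 0.1 were alternatives, and the fits were tested on simulated data.

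Members and gene lists were chosen with earlier results of these data known. The rule named, among called coding genes without overlap and with a mean of at least 100 reads, the 10 that rose most and the 10 that fell most, then the leading genes of each list with the 2 called members that rose most and the 2 that fell most, and runs of at least 3 neighbouring coding genes with at most 3 reads in every library of a line. The CLC chloride channel genes were left out, and not every gene and list the rule gave is reported here. Figures were drawn with matplotlib 3.10.9.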

Additional observations from a re-analysis of the deposited data

Results flagged for a closer look

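Each gene given above with its values was checked in each line for a library whose gap to the nearest of the other 3, as a share of the line's whole range, exceeded Dixon's 95% critical value for 4 samples. Of 481 gene and line pairs, 38 exceeded it, and chance gives about 1 in 20. In 12 of the 38 the other 3 libraries were at 0 and in 2 the library itself was at 0, where a few reads fix the gap, which leaves 24. BPH-1 replicate 2 stood apart in 10, PC3 replicate 4 in 8, BPH-1 replicate 4 and PC3 replicate 3 in 6 each, BPH-1 replicate 1 and PC3 replicate 1 in 3 each, BPH-1 replicate 3 in 2 and PC3 replicate 2 in 0.

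PC3 replicate 4 was lowest of its line in B2M, at 2.69 FPKM against 8.34 to 8.95 in the other PC3 libraries, and in ITGA6, at 9.32 FPKM against 28.2 to 29.9. It was highest in HSPA1A (508.6 FPKM against 236.6 to 274.2), LAMB3 (75.1 against 30.3 to 37.5), NQO1 (30.5 against 14.4 to 16.9), SLC1A5 (44.9 against 28.8 to 29.9) and MCOLN1 (12.8 against 8.55 to 9.08), and was the only PC3 library with KRT14 above 0, at 0.0265 FPKM. The same library had the steepest trend against GC content. The part of that trend in these values was not tested.

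BPH-1 replicate 2 was highest of its line in CTSB (58.1 FPKM against 22.1 to 27.3), COL17A1 (105.3 against 91.6 to 93.9), PLOD1 (36.1 against 22.6 to 24.8), ERAP2 (16.5 against 8.05 to 8.98), DNMT3B (7.77 against 4.41 to 4.98), CTSS (5.12 against 2.95 to 3.23), COL6A2 (0.784 against 0.248 to 0.285) and CDH11 (0.604 against 0.156 to 0.218). It was lowest in TRPM7 (6.82 FPKM against 8.89 to 9.26) and was at 0 for ZNF468, where the others were at 0.0128 to 0.0129 FPKM.

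Of the remaining libraries, BPH-1 replicate 4 was highest in ANO1 (2.24 FPKM), SHISA3 (0.163), SCNN1G (0.0914) and SCNN1B (0.0117) and lowest in CDH2 (3.20) and LIF (3.91). PC3 replicate 3 was highest in S100A14 (1.65 FPKM), RAB5C (0.0414), HSPB8 (0.0229), ITGB6 (0.0164) and NRG1 (0.00991) and lowest in KRT7 (46.4). BPH-1 replicate 1 was highest in BIRC5 (7.45 FPKM) and LAMC3 (0.0121) and at 0 for TRPM2. PC3 replicate 1 was lowest in ITGA3 (72.2 FPKM) and highest in IVL (0.0717) and STAT5B (0.0196), and BPH-1 replicate 3 was highest in MMP17 (0.850 FPKM) and ZNF677 (0.00847).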

How the results depend on the processing

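The count of called genes stayed within 1.5 times of 11058 under the alternatives run, from 8427 with the stricter filter, which tested fewer genes (13040), to 12541 without a filter, and leaving out any library gave 10382 to 11037. Called genes with an absolute log2 fold change over 1 rose from 4424 to 7236 with a pseudocount of 0.1 and to 7685 with voom on the recovered reads, which called 10931 genes in all. The split of calls into higher and lower moved with the scaling, from 4443 and 6615 to 3428 and 7903 with the same summed FPKM, 5205 and 5912 with median-of-ratios, 5258 and 5870 with upper-quartile scaling and 5061 and 5397 after the GC correction. Whether replicate numbers pair the lines is not given in the labels. Same-numbered libraries correlated at 0.11, -0.01, -0.14 and 0.08 in their deviations, and differently numbered ones at -0.15 to 0.21. So few correlations cannot exclude a shared batch. Blocking on the replicate number called 10711 genes, 4297 higher and 6414 lower.

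Of 251 genes given above with their values and a test, 223 kept their direction and their side of the threshold under every alternative they were tested in, which for 78 of them left out the stricter filter. EZH2 (0.29) and OCLN (0.0133) were called and changed sign after the GC correction. The others that changed sign were not called. These were B2M (0.59) and TUBB3 (-0.38) after the GC correction, NQO1 (-0.20) and TUBB3 (-0.20) with the same summed FPKM, CTGF (0.0692 and 0.0785), DDIT3 (0.0492 and 0.0564) and SLC1A5 (0.0468 and 0.0567) with median-of-ratios and upper-quartile scaling, and ABCC1 (0.00197) with the latter. Leaving out 1 library in turn also crossed 0 in genes that were not called, with CTGF from -0.27 to 0.14, DDIT3 from -0.19 to 0.0519, NQO1 from -0.28 to 0.32, SLC1A5 from -0.27 to 0.00198 and TUBB3 from -0.27 to 0.36. The cause was not tested.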
